A study of Mus musculus with 13 samples.

Results

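Genes for the subunits of the proteasome were examined in gluteal white adipose tissue (WAT), a posterior subcutaneous fat depot, of mice kept at 2 environmental temperatures. Members were the genes whose symbol is Psma, Psmb, Psmc, Psmd or Psme followed by a digit, without 3 pseudogenes and without *Psmb8*, *Psmb9* and *Psmb10*, the inducible catalytic subunits of the immunoproteasome. The rule found 42 of the 34419 genes in the count table, and 40 of them passed the filter on low counts. Male C57BL/6J mice were bred in thermal chambers and stayed there for their first 13 weeks of life, either at 22°C, a cool room temperature (n = 7), or at 29°C, which is thermoneutral for mice (n = 6). Mice of both temperatures lost their posterior hair to a depilatory after weaning and lived alone with minimal bedding and no nesting material. Each mouse gave 1 library of total RNA, so every comparison here is between 7 and 6 mice, and the study used this tissue to ask how white fat adapts to a cool environment. Whether mice of a group shared a litter was not given.

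The proteasome degrades proteins that carry ubiquitin chains. Its core particle is a barrel of stacked rings: outer alpha rings form the gate and inner beta rings hold the proteolytic sites. A regulatory particle sits on the core, with a base whose ring of ATPases unfolds the substrate and a lid that removes its ubiquitin. Core and regulatory particle together form the 26S proteasome. Other caps, the PSME activators, open the core without the ATPases. The transcription factor encoded by *Nfe2l1* raises subunit genes together through antioxidant response elements in their promoters when proteasome activity falls short, and in brown fat it is known for supporting proteasome activity in the cold.

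Total counts were between 22356637 and 25245785 per library, and 5 of the 7 libraries at 22°C formed a cluster of lower totals (at most 22857079) that held no 29°C library, against at least 24821549 in the other 8. Counts were scaled to CPM, counts per 1000000 counts of the library, with edgeR's TMM factors and compared by its quasi-likelihood test, with P-adj the p-value adjusted over 17779 genes by the Benjamini-Hochberg method and P-adj below 0.1 called changed. A fold change is given as log2 of 22°C over 29°C with its standard error (SE). Markers of mature fat cells were abundant in every library, with *Adipoq* between 1596 and 3088 CPM; 5 of 10 were positive at 22°C and 1, *Lep*, was called lower (log2 fold change -0.78, P-adj 0.0564). Of 6 tested brown fat markers, 5 were positive and 2 were called higher, *Cidea* (2.51, P-adj 0.0199) and *Cox8b* (2.27, P-adj 0.0827). The 7 genes of the list had a summed level of 57.6 to 216.7 CPM at 22°C and 34.3 to 63.7 CPM at 29°C. *Ucp1* failed the filter on low counts, at 0 to 0.368 CPM (median 0) at 22°C and at 0 at 29°C. *Cox8b* was at 21.2 to 110.4 CPM (median 28.7) at 22°C and at 4.78 to 19.7 CPM at 29°C. Its highest value came from 22°C replicate 1, which was rich in muscle RNA (below). The same library was highest for *Cidea*, at 4.06 to 24.7 CPM (median 8.88) at 22°C and 1.39 to 3.16 CPM at 29°C. All 7 tested lymphocyte markers were positive, and the list had summed levels of 18.9 to 45.1 CPM at 22°C and 13.4 to 38.9 CPM at 29°C. *Ptprc* alone had a mean of 19.2 CPM at both temperatures (log2 fold change 0.0024). The 1 called marker, *Cd3e* (1.78, P-adj 0.0817), was scarce, at 0.465 to 2.02 CPM at 22°C and 0.084 to 0.540 CPM at 29°C. The part of these fat and immune cell markers in the results below was not tested. Skeletal muscle RNA differed between libraries: 18 muscle fibre genes took 6.17% of the counts in 22°C replicate 1 and 8.48% in 22°C replicate 7, against at most 1.61% in the other 11. Their summed level was 956.1 to 96480 CPM at 22°C and 176.9 to 7740 CPM at 29°C, none was at 0 in either group, and all 18 had a positive log2 fold change, 11 of them with unadjusted p below 0.05 and 0 called. The counts by part are therefore also given without these 2 libraries. So are many, but not all, of the genes named with values whose fold change moved by over 1.5 times. This alternative was chosen after the data were seen. In bulk tissue, fewer cells of a type and less RNA per cell cannot be told apart.

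Promoters are shown for *Psmd4*, the member that was called, and for *Psmb5* and *Psmb6*, catalytic subunits whose promoters hold the core letters of the antioxidant response element. The sequences are RefSeq's for build GRCm38.p6, begin 250 bases before the annotated start of transcription, run 5′ to 3′ on the strand of the gene, and have in capitals the matches to TGACNNNGC (the core of the antioxidant response element) or to CCAAT (a box bound by NF-Y), each searched on both strands. *Psmd4* lies on the minus strand at chr3:95042585-95042864, *Psmb5* on the minus strand at chr14:54617966-54618245 and *Psmb6* on the plus strand at chr11:70525107-70525386.
*Psmd4*: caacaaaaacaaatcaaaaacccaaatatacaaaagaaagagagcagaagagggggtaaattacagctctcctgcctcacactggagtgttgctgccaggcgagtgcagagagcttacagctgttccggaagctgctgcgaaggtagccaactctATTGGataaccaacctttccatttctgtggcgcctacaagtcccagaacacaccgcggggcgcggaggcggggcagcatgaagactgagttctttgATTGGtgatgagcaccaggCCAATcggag
*Psmb5*: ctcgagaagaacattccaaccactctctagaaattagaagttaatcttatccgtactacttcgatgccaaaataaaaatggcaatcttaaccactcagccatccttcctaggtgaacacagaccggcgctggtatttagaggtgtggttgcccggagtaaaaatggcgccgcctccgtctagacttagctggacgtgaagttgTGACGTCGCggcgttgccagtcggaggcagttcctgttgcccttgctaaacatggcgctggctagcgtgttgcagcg
*Psmb6*: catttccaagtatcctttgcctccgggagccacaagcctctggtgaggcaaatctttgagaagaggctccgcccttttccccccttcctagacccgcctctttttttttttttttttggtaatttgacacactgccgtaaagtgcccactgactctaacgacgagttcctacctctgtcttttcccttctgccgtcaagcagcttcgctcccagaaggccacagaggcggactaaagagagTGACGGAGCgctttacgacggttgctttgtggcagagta
The *Psmd4* window held 3 CCAAT matches, 2 of them read as ATTGG on this strand, and no TGACNNNGC match. The *Psmb5* match, TGACGTCGC, began at position -47 and the *Psmb6* match, TGACGGAGC, at -9 from the start, and no match of one motif overlapped one of the other in these windows. Of the 42 members, 35 had a window of 300 bases, 250 before and 50 after the start, with 38 windows in all. The catalytic subunit gene *Psmb7* had no window and was not searched. TGACNNNGC stood in 6 of the 38 windows (15.8%, in *Psmb5*, *Psmb6*, *Psmc6*, *Psmd12*, *Psmd9* and *Psme4*) and in 12.4% of 32851 mouse promoter windows. CCAAT stood in 36.8% of the members' windows and in 37.4% of all windows. The shares were close, and a match of letters is a description, not evidence of binding.

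Small positive fold changes were found across the subunits of the 26S particle. Of the 31 subunits of the core, base and lid that fat expressed, 29 (93.5%) had a positive log2 fold change, with a median of 0.14 and a range of -0.02 to 0.39, whereas 51.6% of all genes tested were positive, with a median of 0.01. Without 22°C replicate 1, however, 27 were positive with a median of 0.07, and without both muscle-rich libraries 19 were, with a median of 0.03. Of all 40 members tested, 32 (80%) were positive. The changes of single genes were small against the spread between mice. The call at P-adj below 0.1 was met by 1 member, *Psmd4*, which was higher at 22°C, and by none that was lower. Over all genes, 0.731% were called higher at 22°C and 1.94% were called in either direction. An unadjusted p below 0.05 was met by 6 members (15%), all positive and all of the 26S particle, against a background of 18.5% in either direction and 10.3% higher at 22°C. By DESeq2, the tool of the study, 4 members were called higher (*Psma7*, *Psmd11*, *Psmd4* and *Psmd8*), where 5.58% of all genes were. A pair of genes of the rule, *Psma8* (a subunit of testis, at 0 to 0.424 CPM) and *Psmb11* (a subunit of the thymus, at 0.053 CPM in 22°C replicate 1 and 0 in the other libraries), failed the filter, and counts of 0 allow up to 0.119 to 0.134 CPM (3 counts, counting error only).

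**Figure D1:**
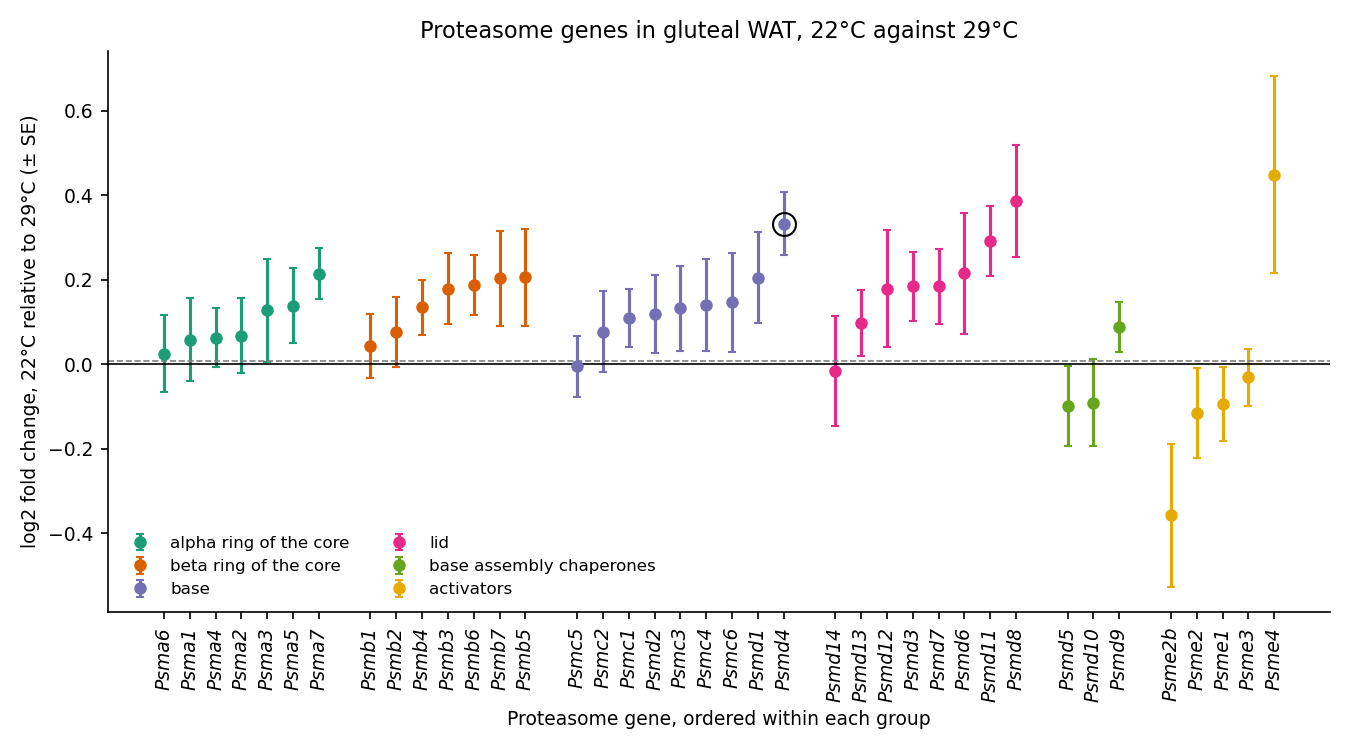
Log2 fold change of each tested subunit, chaperone and activator gene at 22°C relative to 29°C (points, with bars of ± SE; 7 against 6 mice), grouped by part and ordered within it. All 14 core genes lie above 0, *Psmd4* is circled as the gene with P-adj below 0.1, and the dashed line is the median of all genes tested, 0.01.

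The alpha ring had the smallest median of the 4 parts of the 26S particle. All 7 tested alpha genes were positive (median log2 fold change 0.07) and 0 were called. *Psma7* had the largest value. Its level was 62.8 to 78.4 CPM (median 68.0) at 22°C and 54.5 to 63.5 CPM (median 58.1) at 29°C. Of 7 mice at 22°C, 6 lay above the highest 29°C mouse. The log2 fold change of *Psma7* was 0.21 ± 0.06 (SE), or 16% higher, with an edgeR P-adj of 0.117. With the library-total cluster as a covariate it was 0.12 ± 0.08 (edgeR P-adj 0.572). Among the libraries of higher total alone it was 0.11 ± 0.08 (edgeR P-adj 0.608). *Psma6*, which had the highest level per length of all subunits, was the other end of the ring. It was measured at 69.1 to 92.9 CPM (median 76.8) at 22°C and 63.0 to 88.9 CPM (median 78.5) at 29°C, ranges that overlapped almost fully, with a log2 fold change of 0.03 ± 0.09 (SE) and an edgeR P-adj of 0.913. Without 22°C replicate 1 *Psma6* was at -0.02, and without both muscle-rich libraries at -0.04.

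The beta ring, with the proteolytic sites, was positive in 7 of 7 tested genes (median log2 fold change 0.18), with 0 called. *Psmb5* carries the chymotrypsin-like site. It was at 49.6 to 72.8 CPM (median 55.5) at 22°C and at 43.2 to 61.5 CPM (median 50.0) at 29°C, with a log2 fold change of 0.21 ± 0.11 (SE) and an edgeR P-adj of 0.361. *Psmb7*, with the trypsin-like site, was at 73.4 to 115.1 CPM (median 79.8) and at 63.4 to 89.1 CPM (median 73.9), a log2 fold change of 0.20 ± 0.11 (SE) with an edgeR P-adj of 0.356. For both genes, 3 mice at 22°C lay above the highest 29°C mouse and the groups otherwise overlapped. The top *Psmb7* values, 115.1 and 99.5 CPM, came from the muscle-rich 22°C replicates 1 and 7. Without replicate 1, the log2 fold change of *Psmb7* was 0.13, and without both it was 0.06 ± 0.09 (SE); that of *Psmb5* was 0.15 and 0.10 ± 0.11. *Psmb6*, with the caspase-like site, varied less between mice. It was at 77.2 to 106.0 CPM (median 90.8) at 22°C and at 74.9 to 88.5 CPM (median 78.0) at 29°C, where 5 of 7 mice at 22°C exceeded every 29°C mouse. Its log2 fold change was 0.19 ± 0.07 (SE), or 13.8% higher, with an edgeR P-adj of 0.198, and was 0.12 ± 0.06 (SE) without the 2 muscle-rich libraries. The structural subunits *Psmb1*, the lowest fold change of the ring, and *Psmb2*, its highest level per length, had log2 fold changes of 0.04 ± 0.08 and 0.08 ± 0.08 (SE), with P-adj of 0.807 and 0.667, and of 0.0014 and 0.03 without the 2 libraries.

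In the base, 8 of 9 genes were positive, with a median log2 fold change of 0.13. *Psmd4* encodes a receptor that binds the ubiquitin chains of substrates. It was at 104.2 to 137.4 CPM (median 114.2) at 22°C and at 84.1 to 103.7 CPM (median 91.0) at 29°C. All 7 mice at 22°C lay above all 6 mice at 29°C, although the lowest of the first group and the highest of the second nearly met. The log2 fold change of *Psmd4* was 0.33 ± 0.07 (SE), or 25.9% higher at 22°C, with an edgeR P-adj of 0.0726. *Psmd4* was the 1 member whose groups did not overlap, as in 1.24% of all genes tested; with DESeq2 size factors in place of TMM no member was free of overlap, and with library totals alone *Psmd11* and *Psmd4* were. The call was lost without the muscle-rich libraries of 22°C replicates 1 and 7, where the log2 fold change was 0.26 ± 0.07 (SE) with P-adj 0.106, with the muscle score (P-adj 0.190) or the library-total cluster (0.268) as a covariate, with no filter on low counts (0.151), and in 8 of 13 fits with 1 mouse removed in turn (P-adj between 0.0733 and 0.170 over the 13). Among the libraries of higher total alone, 2 mice at 22°C against 6 at 29°C, the log2 fold change was 0.33 ± 0.09 (SE) with an edgeR P-adj of 0.265.

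Of the ATPases, *Psmc1*, which takes part in opening the gate, had the highest level per length of the base, at 100.9 to 133.9 CPM (median 121.6) at 22°C and 101.7 to 116.7 CPM (median 107.5) at 29°C. This gave a log2 fold change of 0.11 ± 0.07 (SE) with an edgeR P-adj of 0.415, and 0.05 without the 2 muscle-rich libraries. *Psmc5* was the base gene without a positive value. It was at 59.7 to 75.4 CPM (median 73.6) and at 63.4 to 81.5 CPM (median 68.9), a log2 fold change of -0.01 ± 0.07 (SE) with an edgeR P-adj of 0.981. The 6 ATPase genes, *Psmc1* to *Psmc6*, thus ran from -0.01 to 0.15, and the scaffold genes *Psmd1* and *Psmd2* had log2 fold changes of 0.20 and 0.12, with P-adj of 0.333 and 0.526. Without 22°C replicate 1, *Psmd1* was at 0.11 and *Psmd2* at 0.06, and without replicates 1 and 7 they were at 0.05 and -0.0065. *Psmc5* was then at -0.05.

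Of the 8 lid genes, 7 were positive (median log2 fold change 0.18) and 0 were called. *Psmd8*, the subunit that joins the lid last in assembly, was at 141.5 to 269.6 CPM (median 161.0) at 22°C and at 120.7 to 151.5 CPM (median 134.9) at 29°C. The value of 269.6 CPM came from 22°C replicate 1 and that of 191.7 CPM from replicate 7, and the other 5 mice at 22°C were between 141.5 and 162.4 CPM. *Psmd8* had a log2 fold change of 0.39 ± 0.13 (SE) with an edgeR P-adj of 0.174. This fold change was 0.25 without replicate 1 and 0.19 ± 0.07 (SE) without these 2 libraries, with a P-adj of 0.195. *Psmd11*, a scaffold that also touches the core, was at 74.6 to 109.7 CPM (median 86.7) at 22°C and at 65.8 to 80.1 CPM (median 70.9) at 29°C, with 5 of 7 mice above the 29°C range. Its log2 fold change was 0.29 ± 0.08 (SE), with an edgeR P-adj of 0.122, and 0.21 ± 0.07 (SE) without the 2 libraries. With the library-total cluster as a covariate it was 0.18 ± 0.12 (edgeR P-adj 0.564). Among the libraries of higher total alone it was 0.17 ± 0.10 (edgeR P-adj 0.533). *Psmd3* was at 99.5 to 141.7 CPM (median 112.0) and at 92.4 to 115.0 CPM (median 102.6), a log2 fold change of 0.18 ± 0.08 (SE) with an edgeR P-adj of 0.246 that became 0.08 ± 0.07 (SE) without the 2 libraries. The deubiquitinase gene *Psmd14* had the lowest fold change of the lid, at 35.4 to 65.5 CPM (median 42.2) at 22°C and 37.0 to 53.5 CPM (median 44.3) at 29°C. This gave a log2 fold change of -0.02 ± 0.13 (SE) with an edgeR P-adj of 0.962, its highest value again came from 22°C replicate 1, and it was at -0.13 without that library and at -0.17 ± 0.09 without the 2.

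**Figure D2:**
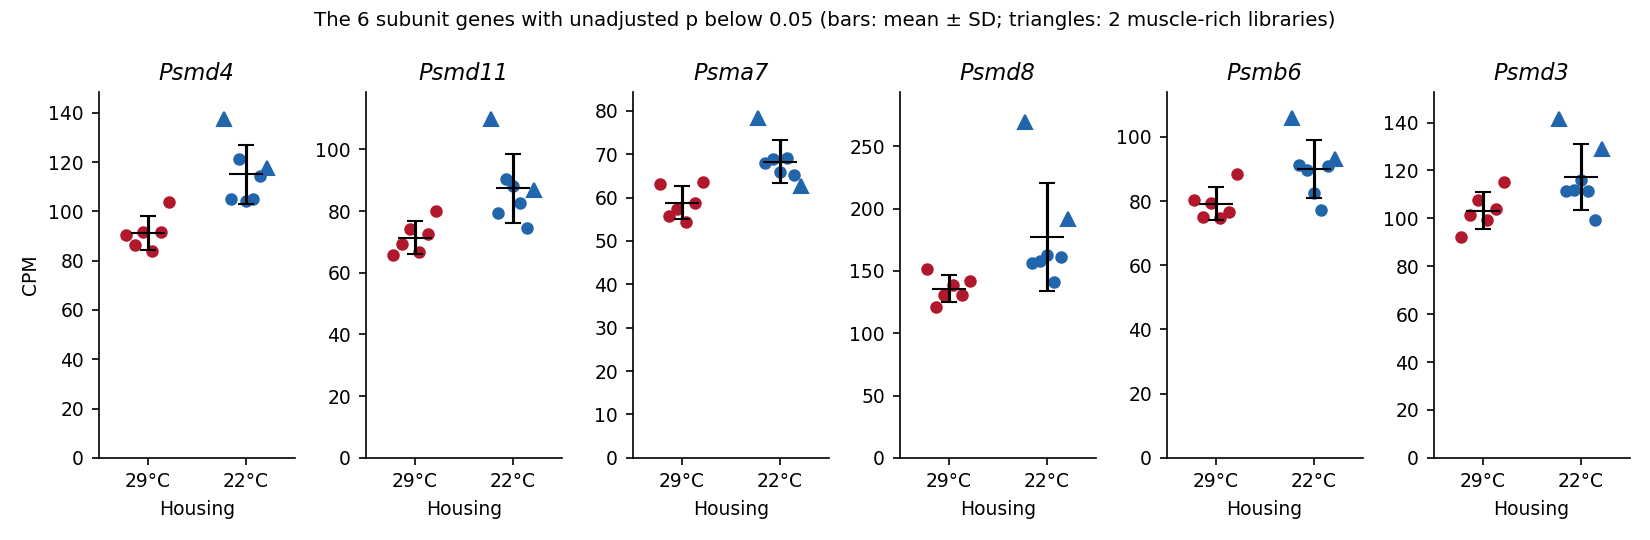
CPM of the 6 subunit genes with unadjusted p below 0.05 in each mouse at 29°C (red, n = 6) and 22°C (blue, n = 7), with mean ± SD in black and the 2 muscle-rich libraries as triangles. The 22°C replicate 1 is the highest point in all 6 panels, and *Psmd4* is the gene whose groups do not overlap.

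The 22°C library with the highest level was the same for nearly all subunits. The mean log2 CPM of the 31 genes of the 26S particle was 6.20 to 6.67 (median 6.26) at 22°C and 6.05 to 6.34 (median 6.19) at 29°C. The highest values at 22°C belonged to the muscle-rich replicates 1 (6.67) and 7 (6.42), and the other 5 mice, at 6.20 to 6.32, all fell inside the range of the 29°C mice. These levels depend on the TMM factors, which were 0.850 in replicate 1, 0.879 in replicate 7 and 0.952 to 1.058 in the other libraries. As a share of all counts, without TMM factors, the members took 0.330% in replicate 1 but 0.293% in replicate 7, inside the 29°C range of 0.272% to 0.312%. For 29 of the 31 genes, 22°C replicate 1 was the highest of the 13 libraries, with all 8 lid genes, 8 of 9 base genes and 13 of 14 core genes among them. At the other end, 29°C replicate 4 was the lowest library for 17 of the 31.

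**Figure D3:**
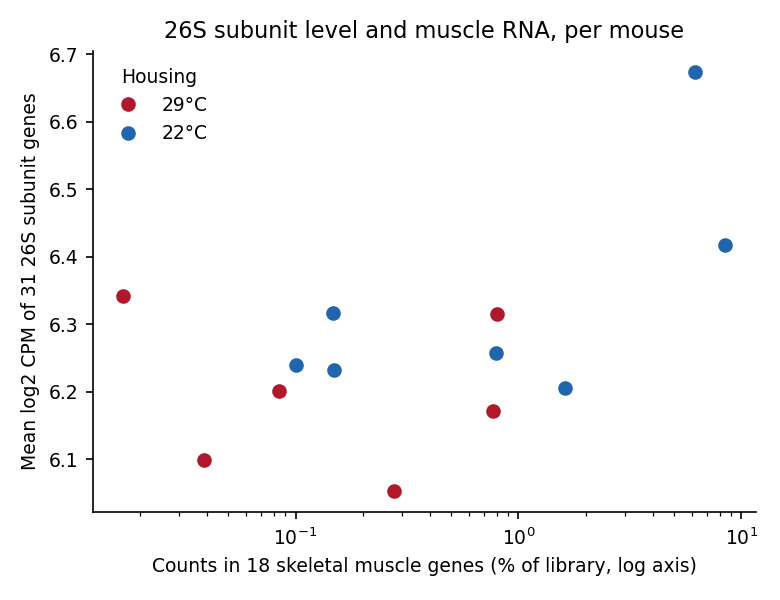
Mean log2 CPM of the 31 genes of the 26S particle in each mouse against the share of counts in 18 skeletal muscle genes (percent, log axis; blue 22°C, red 29°C). The libraries with 6.17% and 8.48% of counts in muscle genes are the top pair, and the other 5 mice at 22°C lie at 6.20 to 6.32, within the 29°C range.

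Without these 2 libraries, 19 of the 31 genes were positive and the median log2 fold change was 0.03, against 29 and 0.14 with them. The base went from 8 to 3 positive genes of 9, with its median passing from 0.13 to -0.01, and the lid from 7 to 5 of 8, with a median of 0.05. In the core, the alpha ring kept 4 of 7 positive genes, with a median of 0.01, whereas the beta ring had 7 of 7, with a median of 0.10. By edgeR, 0 of the 31 were called at P-adj below 0.1 in that comparison, where 271 of 17944 genes were. An unadjusted p below 0.05 was met by 4 of the 31 (12.9%), against 15.2% of all genes in the same fit. With the muscle list's mean log2 CPM as a covariate, 27 of 31 genes were positive, with a median of 0.08. Leaving out 22°C replicate 1 alone gave 27 of 31 and a median of 0.07. Among the libraries of higher total, where 1 of the 2 mice at 22°C was the muscle-rich replicate 7, 29 of 31 were positive, with a median of 0.15. The libraries of lower total held mice of 22°C only, so no comparison could be made within them.

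**Figure D4:**
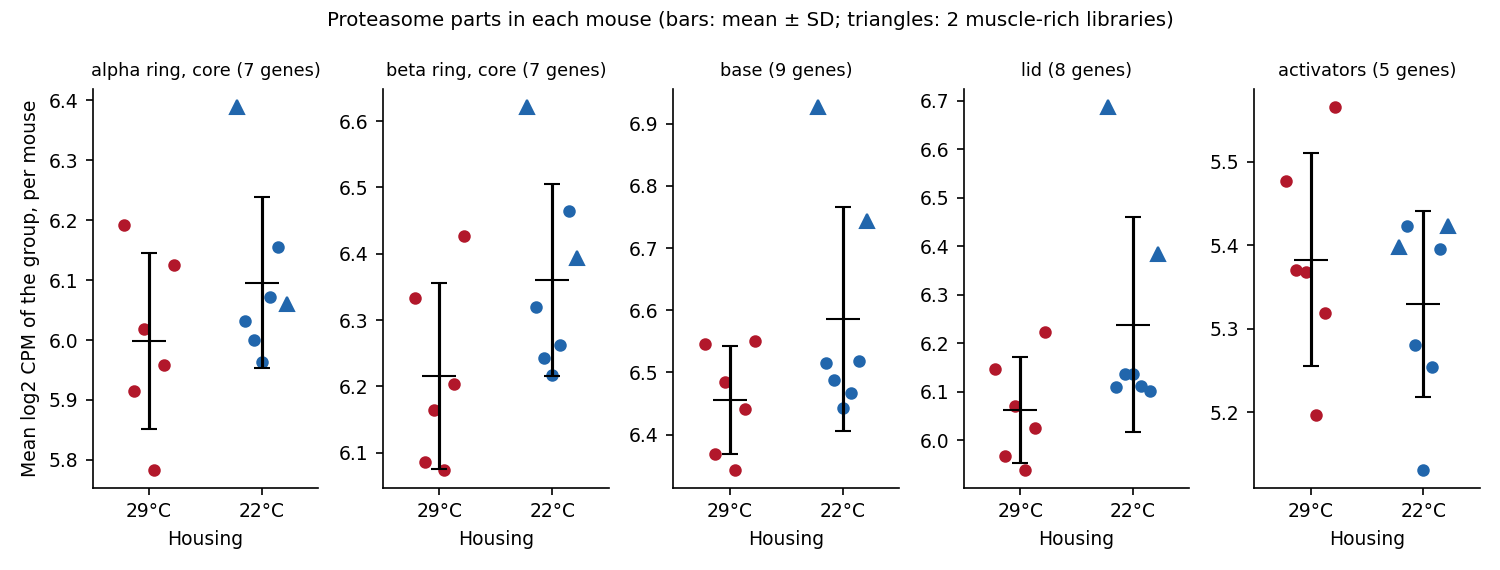
Mean log2 CPM of the genes of each part of the proteasome in each mouse at 29°C (red) and 22°C (blue), with mean ± SD in black and the 2 muscle-rich libraries as triangles; each panel has its own axis. In the base and the lid, the triangles lie above all other mice, and the other 5 mice at 22°C fall within the 29°C range.

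Among the members outside the 26S particle, most activators and base chaperones had negative values, none of which passed the test. Of 3 chaperones that assemble the base, *Psmd5*, *Psmd9* and *Psmd10*, 1 was positive (median log2 fold change -0.09), with P-adj between 0.449 and 0.683. Without the 2 muscle-rich libraries 1 was positive (median -0.11). All 3 were positive with the library-total cluster as a covariate (median 0.11) and in the libraries of higher total (median 0.10). Of the 5 activator genes, 1 was positive, with a median of -0.09 (-0.05 without the 2 muscle-rich libraries, again with 1 positive), and 0 were called. That gene was *Psme4*, whose product caps the core in the nucleus and acts on histones and small proteins. It was at 78.3 to 203.2 CPM (median 91.1) at 22°C and at 73.7 to 98.9 CPM (median 88.2) at 29°C. The values of 203.2 and 193.2 CPM came from 22°C replicates 1 and 7, and the other 5 mice at 22°C reached at most 95.2 CPM, within the 29°C range. The log2 fold change of *Psme4* was 0.45 ± 0.23 (SE), with an edgeR P-adj of 0.326. It was 0.27 without replicate 1 alone and 0.0044 ± 0.08 (SE) without these 2 libraries. *Psme2*, an interferon-induced activator subunit with the highest level per length of the activators, was at 63.0 to 91.9 CPM (median 78.0) at 22°C and 68.7 to 96.5 CPM (median 80.7) at 29°C. Its fold change, -0.12 ± 0.11 (SE) on the log2 scale, had an edgeR P-adj of 0.599, and was -0.05 without the 2 libraries. *Psme2b*, a retrogene copy of *Psme2* whose reads cannot be separated from it with certainty, was lowest, at 1.63 to 3.37 CPM (median 1.95) and 2.18 to 3.27 CPM (median 2.65), with a log2 fold change of -0.36 ± 0.17 (SE) and an edgeR P-adj of 0.278. *Psmc3ip* matches the naming rule but encodes a protein of meiotic recombination, not a subunit, and had a log2 fold change of 0.27 ± 0.14 (SE) with a P-adj of 0.326.

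Levels were compared between genes as CPM per kilobase of merged exons in the GENCODE annotation of GRCm38, which need not be the authors' annotation. The 31 subunit genes spanned 12.5 (*Psmd11*) to 63.7 (*Psma6*) CPM per kilobase, against a median of 4.07 for all genes tested. Highest in their parts were *Psmb2* in the beta ring (62.7), *Psmc1* in the base (58.8) and *Psmd8* in the lid (51.7). The assembly chaperones of the base were at 2.98 to 6.50 CPM per kilobase, below every subunit they help to assemble. The median coefficient of variation between mice of a group was 11.6% for the 31 subunit genes and 16.9% for all genes tested. The sets were not matched for level, with medians of 30.1 and 4.07 CPM per kilobase, so a lower spread at equal level was not tested.

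In the immunoproteasome, *Psmb8*, *Psmb9* and *Psmb10* take the places of *Psmb5*, *Psmb6* and *Psmb7*. None differed by edgeR: *Psmb8* had a log2 fold change of 0.00 ± 0.11 (SE), *Psmb9* of -0.01 ± 0.10 and *Psmb10* of -0.12 ± 0.09, with P-adj of 0.992, 0.972 and 0.539. Ratios of counts within a library need no scaling and were compared by a two-sided exact permutation test over 1716 splits of the mice, adjusted over the 3 ratios. The ratio of *Psmb10* to *Psmb7* was 0.249 to 0.516 (median 0.468) at 22°C and 0.454 to 0.573 (median 0.508) at 29°C. The log2 ratio was lower at 22°C by a difference of -0.32 ± 0.17 (SE), with an exact p of 0.0728 and an adjusted p of 0.218. For *Psmb9* to *Psmb6* the ratio was 0.199 to 0.348 (median 0.278) and 0.249 to 0.364 (median 0.321), a log2 difference of -0.20 ± 0.14 (SE) with an exact p of 0.197 and an adjusted p of 0.296. For *Psmb8* to *Psmb5* it was 0.506 to 1.07 (median 0.805) and 0.619 to 1.09 (median 0.974), a log2 difference of -0.21 ± 0.20 (SE) with an exact p and an adjusted p of 0.31. The groups overlapped in all 3 ratios. In each, the lowest values came from 22°C replicates 1 and 7, and without them the log2 differences were -0.10, -0.04 and -0.01.

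**Figure D5:**
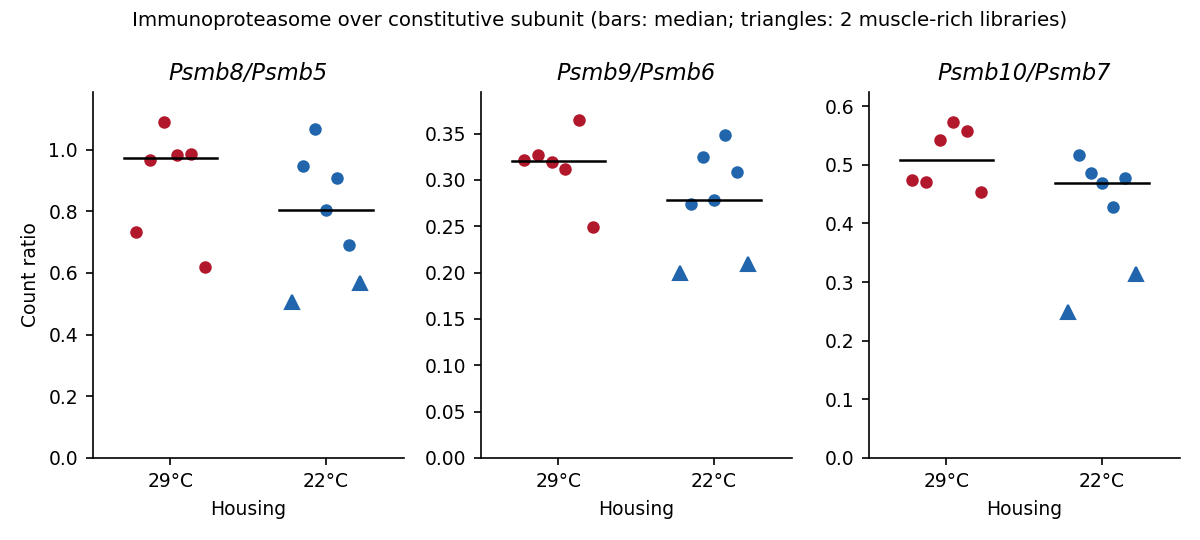
Ratio of the counts of each immunoproteasome subunit to those of the constitutive subunit it replaces in each mouse at 29°C (red) and 22°C (blue), with the median as a line and the 2 muscle-rich libraries as triangles. The triangles are the lowest points of all 3 panels, with *Psmb10*/*Psmb7* at 0.249 and 0.314.

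Genes that work around the proteasome were read from lists of known roles. By edgeR, 0 of the 36 tested genes in these lists were called (1.94% of all genes), and 6 had an unadjusted p below 0.05, all positive (16.7%, against 18.5% of all genes in either direction and 10.3% higher), whereas DESeq2 called 1, *Nploc4* (5.58% of all genes called higher). Those genes are named by the rule on p, at a share below the background in either direction and above that of genes higher at 22°C. On a list of *Pomp*, *Psmg1*, *Psmg2*, *Psmg3*, *Psmg4* and *Akirin2*, 4 of 6 were positive, with a median log2 fold change of 0.04. All but *Akirin2*, which was positive, are factors that assemble the core. Among other subunits and bound regulators, 5 of 7 were positive, including *Adrm1*, a ubiquitin receptor of the base (0.17 ± 0.07 (SE), P-adj 0.245), and *Ube3c*, a ligase that extends ubiquitin chains at the proteasome (0.17 ± 0.08, P-adj 0.267). The list for transcriptional control of the subunits mixed activators and their processing with the negative regulators *Bach1* and *Keap1*. All but *Nfe2l2* were positive, 8 of 9 genes with a median of 0.13, which gives no single direction of control. Of these, *Nfe2l1* itself was at 385.2 to 635.2 CPM (median 436.8) at 22°C and 382.7 to 459.2 CPM (median 441.4) at 29°C, with the top value in 22°C replicate 1. Its log2 fold change was 0.08 ± 0.11 (SE), with an edgeR P-adj of 0.744, which says nothing of its protein, whose activity depends on processing. *Ddi2*, the protease that cleaves and activates this factor, had a log2 fold change of 0.22 ± 0.10 (SE) with a P-adj of 0.244, and *Mafg*, its small partner on DNA, of 0.15 ± 0.06 with a P-adj of 0.229. In ubiquitin supply and the p97 pathway, 7 of 14 genes were positive, with a median of -0.01. *Nploc4*, a cofactor that brings ubiquitinated proteins to the p97 ATPase, was at 76.8 to 107.9 CPM (median 82.4) at 22°C and 69.0 to 73.6 CPM (median 71.0) at 29°C, without overlap, a log2 fold change of 0.29 ± 0.08 (SE) with an edgeR P-adj of 0.111. Without the 2 muscle-rich libraries it was 0.20, *Adrm1* 0.10, *Ube3c* 0.06, *Ddi2* 0.13, *Mafg* 0.15 and *Nfe2l1* -0.07.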

How the data were processed

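RNA of gluteal WAT from 13 mice was sequenced on the Illumina HiSeq platform. The authors checked reads with FastQC, aligned them with STAR 2.7.5a and used featureCounts to count reads in genes. They deposited these raw counts, for 34419 genes, and the regularized log2 values that DESeq2 makes from them. The submitters' notes name GRCm39 and the methods mm10 for cultured cells; the strand setting and annotation are not given in the sources used here, so counts of overlapping genes and of copies are uncertain. Gene identifiers were matched to symbols without their version, which named 34006 genes.

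Counts were compared with edgeR 4.0.16 in R 4.3.3 (TMM, filterByExpr, quasi-likelihood F test, no covariate). The SE was taken from the fold change and the F statistic (log2 fold change over root F). Mice were grouped by the temperature in the labels. Alternatives were DESeq2 1.42.0, its size factors, other filters, robust fitting, limma 3.58.1 on the deposited log2 values, a replicate block, a cluster covariate for library totals, a muscle covariate, and leaving out mice. Checks on simulated counts were run before use. Chi-square per gene was at least 15.7 over 78 library pairs, and thus no pair agreed within sampling noise. Members and lists were chosen with earlier results of these data known, so lists are described by counts and medians without a test.

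Genes named with values are the catalytic subunits and their immunoproteasome counterparts, members that were called, had an unadjusted p below 0.05 or did not overlap, the extremes of fold change and level per length in each part, members that failed the filter, *Nfe2l1*, and related genes with an unadjusted p below 0.05, of which 1 is not reported here. *Psmd1*, *Psmd2*, *Psmc3ip* and genes with a far sample were added after their values were seen. *Paaf1* and *Psme3ip1* were not analysed here.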

Additional observations from a re-analysis of the deposited data

Results flagged for a closer look

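The 86 groups of values examined were the CPM of each tested member and the 3 ratios, at each temperature. In 9 of them the highest mouse lay far from the others by Dixon's criterion, where chance gives about 1 in 20, or 4.3 groups. These 9 groups share mice and are not independent of each other. In 5 of them the far mouse was 22°C replicate 1, the library with 6.17% of its counts in muscle genes: *Psma1* at 114.3 CPM (next highest 93.4), *Psma4* at 91.4 CPM (next 82.2), *Psma7* at 78.4 CPM (next 69.1), *Psmd14* at 65.5 CPM (next 45.0) and *Psmd8* at 269.6 CPM (next 191.7).

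The 22°C replicate 6 was far above the rest for the base chaperone *Psmd5*, at 49.4 CPM (next 39.7), and for *Psmc3ip*, at 13.4 CPM (next 9.41). *Psme2b* was at 3.37 CPM in 22°C replicate 2 (next 2.23), and the nuclear activator *Psme3* was at 104.4 CPM in 29°C replicate 6 (next 90.1). The part of muscle RNA or any other cause in these values was not tested.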

How the results depend on the processing

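By edgeR, 1 of 40 members, *Psmd4*, was called higher. The number called higher was 4 with DESeq2, and 0 with no filter on low counts, with the library-total cluster or the muscle score as a covariate, in the higher-total libraries only, at P-adj below 0.05, and without 22°C replicates 1 and 7 together. It was 0 to 3 over the fits that left out 1 mouse each: 3 without 22°C replicate 6 (*Psma7*, *Psmd11* and *Psmd4*), 1 without 22°C replicate 2, 4 or 5 or 29°C replicate 6, and 0 without 22°C replicate 1, 3 or 7 or 29°C replicate 1, 2, 3, 4 or 5. No member was called lower in any of these fits. The number of genes called in all was 345, against 1676 with DESeq2, 42 with no filter, 46 with the muscle score, 4 with the cluster covariate, 8 in the higher-total libraries, 32 without 29°C replicate 3 and 652 without 22°C replicate 6. The cause of these differences was not tested. In the same fits the log2 fold change of *Psmd4* stayed between 0.26 and 0.37.

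The replicate numbers of the 2 temperatures share no stated litter or chamber. Same-numbered mice correlated at r = 0.051 to 0.513 in their deviations from the group means, with 5 of 6 pairs over 0.1 and 4 of 6 mice closest to their own number. This is a hint of shared structure from the data, not from the design, and the condition that every pair exceed 0.1 was not met, so the main comparison has no block. With the replicate block, 214 genes and 0 members were called, *Psmd4* had a P-adj of 0.106, 10 of the 31 genes of the 26S particle (32.3%, against 18.5% of all genes in the same fit) had an unadjusted p below 0.05, and *Psmb9* turned to 0.0352.

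The median log2 fold change kept its sign for core and lid in every alternative, turned to -0.0122 for the base without 22°C replicates 1 and 7, and to 0.0159 for the activators with the muscle score. Of 50 genes followed, 30 kept their sign throughout, and each of the 20 others was uncalled. Without 22°C replicates 1 and 7, log2 fold changes reversed to -0.0065 for *Psma2*, -0.0366 for *Psma3*, -0.0361 for *Psma6*, -0.0593 for *Psmc2*, -0.0233 for *Psmc3*, -0.0122 for *Psmc4*, -0.018 for *Psmc6*, -0.0321 for *Psmd12*, -0.0065 for *Psmd2*, -0.0091 for *Psmd6*, 0.0813 for *Psmb9* and -0.0699 for *Nfe2l1*. With the muscle score they were -0.0236 for *Psmc2*, -0.012 for *Psmc3*, 0.0159 for *Psme2*, 0.0259 for *Psme3*, 0.0449 for *Psmb9* and -0.033 for *Nfe2l1*. With the cluster covariate and in the higher-total libraries they were -0.0071 and -0.0167 for *Psma1*, 0.0655 and 0.0572 for *Psmc5*, 0.1093 and 0.0999 for *Psmd10*, 0.1006 and 0.0906 for *Psmd5*, 0.0772 and 0.0685 for *Psme3*, and -0.1213 and -0.1311 for *Psmb8*. *Psmb8* was -5e-04 with no filter and -0.0045 with limma on the deposited log2 values. Leaving out 1 mouse each gave -0.0126 to 0.1202 for *Nfe2l1*, -0.0068 to 0.1019 for *Psma1*, -0.0294 to 0.067 for *Psma6*, -0.0477 to 0.05 for *Psmb8*, -0.0543 to 0.0399 for *Psmb9*, -0.0364 to 0.0419 for *Psmc5*, -0.1348 to 0.0396 for *Psmd14* and -0.0546 to 0.0256 for *Psme3*. The 3 ratios kept their sign and stayed above the threshold in every alternative.

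The median SE of the 31 subunit genes was 0.0887 on the log2 scale, against a median change of 0.14 that was 0.03 without 22°C replicates 1 and 7. Library totals in the lower cluster occurred at 22°C alone, so there lower totals and temperature cannot be told apart.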

Other observations

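The members took 0.289% to 0.330% of all counts per library at 22°C and 0.272% to 0.312% at 29°C, with the highest share in 22°C replicate 1 and the lowest in 29°C replicate 4. The muscle-rich 22°C replicate 7 was at 0.293%, inside the 29°C range.

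*Ecpas*, a protein that holds the parts of the proteasome together and tethers it to organelles, had its highest values in the muscle-rich libraries, 237.4 CPM in 22°C replicate 7 and 217.0 CPM in 22°C replicate 1. It was at 128.8 to 237.4 CPM (median 135.6) at 22°C and 126.8 to 137.1 CPM (median 132.1) at 29°C, with a log2 fold change of 0.29 ± 0.15 (SE) and an edgeR P-adj of 0.329. The mice at 22°C other than replicates 1 and 7 were at 128.8 to 148.3 CPM. *Ecpas* was chosen after its values were seen.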
